A study of Mus musculus with 4 samples.

Results

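Chromatin accessibility was examined at 9 genes of formative and primed pluripotency in day 4 embryoid bodies (EBs) made from WT or CTCF-K20R cells. The genes were *Fgf5*, *Otx2*, *Pou3f1*, *Utf1*, *Lin28a*, *Lin28b*, *Sall4*, *Zic2* and *Zic5*, which are 9 of 21864 protein-coding genes in the annotation, and they were chosen by name. EBs are aggregates in which embryonic stem cells (ESCs) leave self-renewal and begin to form the early lineages. Both groups came from the mouse ESC line E14Tg2A, and the K20R cells carried a CRISPR/Cas9 point mutation that changes lysine 20 of the chromatin protein CTCF to arginine. The labels do not say how many edited clones were used. Each genotype had 2 ATAC-seq libraries, each with its own list of peaks. In this assay a transposase inserts adapters where DNA is open. The ESCs had been kept on fibroblast feeder cells before differentiation.

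Pluripotency is not a single state. Naive cells of the early epiblast pass through a formative state, in which they become able to answer lineage signals, and then enter the primed state of the epiblast just before gastrulation. *Fgf5*, *Otx2* and *Pou3f1* are classical genes of that passage, *Utf1* and *Sall4* are active in pluripotent cells more widely, *Zic2* and *Zic5* continue into the neural plate, and the *Lin28* genes hold back the maturation of let-7 microRNAs. A peak near one of these genes shows open DNA, not transcription.

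There were 59783 and 66703 peaks in the WT lists, and 51823 and 55832 in those of K20R. Within 50 kb of a start of the 9 genes lay 76 and 77 WT peaks and 69 and 77 K20R peaks, of which 14 and 12 in WT against 11 and 14 in K20R were within 1 kb. Peaks that shared a base were merged over the 4 lists, which gave 86 regions within 50 kb of the 9 genes, of 80380 in all. The second library of each genotype was the more enriched, with median summit fold enrichments of 7.74 in WT and 7.59 in K20R against 5.86 and 5.73 in the first libraries, measured at regions shared by all lists. Each peak was therefore placed by its percentile within its own list, ranked by the −log10 p of the summit, where 100 is the strongest peak. With 2 libraries against 2, an exact two-sided permutation test of one gene cannot give a p below 0.333.

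All 9 genes had a promoter peak, within 1 kb of a start, in every list. In 7 of the 9 the strongest promoter peak ranked lower in both K20R lists than in both WT lists, and in 2, *Utf1* and *Lin28b*, it ranked higher in both. Over the 14494 genes with a promoter peak in all 4 lists, 32.2% ranked lower without overlap and 15.8% ranked higher. More promoters thus ranked lower than higher in the K20R lists. The same held for regions shared by all lists, of which 34.8% were lower and 18.6% higher. When those genes were ranked anew among themselves, 23.0% were lower and 23.9% higher, and of the 9 genes *Fgf5*, *Otx2*, *Pou3f1*, *Zic2* and *Zic5* stayed lower, *Utf1* and *Lin28b* stayed higher, and *Lin28a* and *Sall4* overlapped. Ranking by fold enrichment in place of −log10 p left 2 of the 9 lower and 1 higher. No share over all genes is given for that ranking, so these counts cannot be read against a background. The exact permutation p was 0.333 for each gene.

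**Figure D1:**
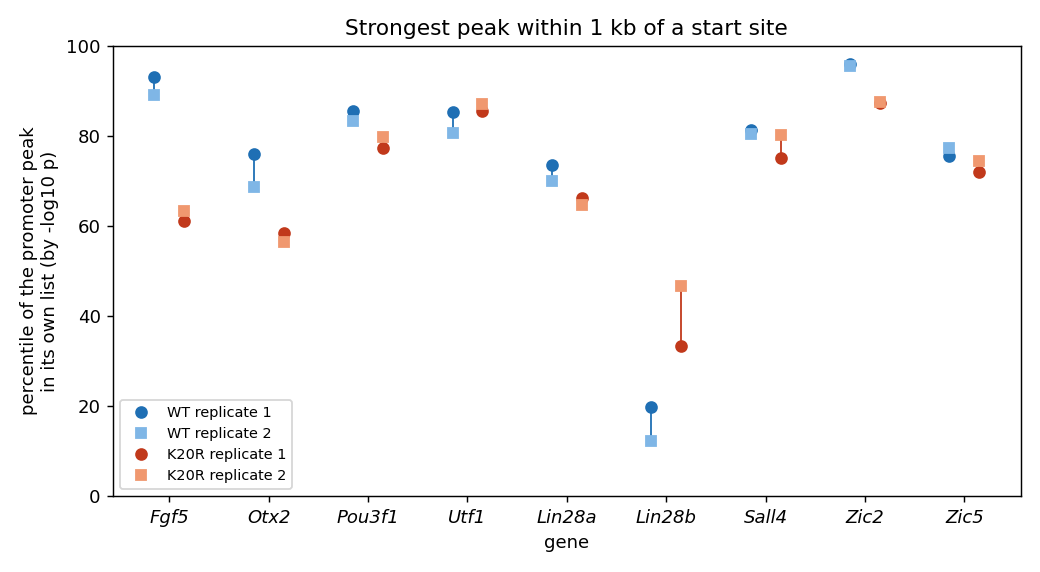
Percentile of the strongest promoter peak of each gene within its own list (y axis, 0 to 100, ranked by −log10 p) for the 2 WT and 2 K20R libraries, with a line joining the libraries of a genotype. *Fgf5* shows the widest downward gap, with WT at 93.2 and 89.1 and K20R at 61.2 and 63.4, and *Lin28b* the widest upward gap.

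*Fgf5* encodes a secreted fibroblast growth factor that marks the epiblast once it has left the naive state. The gene (chr5:98254184-98277030, plus strand) had its promoter peak at percentiles 93.2 and 89.1 in WT against 61.2 and 63.4 in K20R. This was the largest downward difference among the 9 promoters, −28.9 percentile points between the means (91.2 ± 2.90 in WT and 62.3 ± 1.56 in K20R, SD, n = 2 each). The summit fold enrichment was 7.39 and 6.75 in WT against 3.87 and 4.30 in K20R. On either scale the genotypes did not overlap. The pileup of reads at the summit was 121 and 162 in WT against 59.0 and 95.0 in K20R. In bulk EBs, fewer cells with the site open and less opening per cell cannot be told apart. The local background at the summit was nearly the same, at 15.5 and 23.2 in WT against 14.5 and 21.3 in K20R. The strongest point of the peak also stood elsewhere: it was 3 and 10 bp past the first annotated start in WT and 122 and 117 bp past it in K20R.

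A second peak lay inside the gene, in an intron, with its summit at 1532 bp from the nearer start. Its percentiles were 93.4 and 92.9 in WT against 92.8 and 93.7 in K20R, so the groups overlapped. The pileups there were 121 and 183 in WT against 123 and 201 in K20R. In WT the promoter and the intronic peak were thus of similar rank, and in K20R the promoter ranked far below the intronic peak. The remaining region, intergenic and 39155 bp from the start, had percentiles of 72.0 and 82.6 in WT against 62.0 and 69.5 in K20R. The DNA of the promoter and of the intronic peak is given to show 2 neighbouring sites with unlike behaviour. The promoter sequence is the 250 bases before the first start in RefSeq (GRCm38.p6, chr5:98253934-98254183, plus strand), and the intronic one is the 201 bases around the summit (chr5:98255844-98256044, plus strand). Capitals mark letters of the GC box GGGCGG in the promoter and of the ZIC motif CCTGCTG in the intron, each searched on both strands.
Fgf5 promoter: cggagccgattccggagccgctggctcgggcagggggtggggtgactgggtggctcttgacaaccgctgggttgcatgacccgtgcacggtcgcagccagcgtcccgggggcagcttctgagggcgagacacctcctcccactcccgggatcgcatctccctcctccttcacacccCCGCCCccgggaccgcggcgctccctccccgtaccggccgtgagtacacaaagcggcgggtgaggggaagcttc
Fgf5 intronic peak: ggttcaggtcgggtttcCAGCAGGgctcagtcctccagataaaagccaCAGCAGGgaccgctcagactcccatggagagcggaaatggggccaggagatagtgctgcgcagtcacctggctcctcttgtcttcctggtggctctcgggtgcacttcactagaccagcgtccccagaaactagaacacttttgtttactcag
The promoter had a GC content of 70.8% and the intronic window 56.7%. The promoter stretch ends before the summits of its peak, so the 2 sequences are not from like parts of their peaks. A GC box stood in 32.7% of 32817 RefSeq promoters of the same length, and the ZIC letters in 14.4% of the 201-base windows at all 80380 regions.

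*Pou3f1* encodes OCT6, a POU-domain transcription factor of the primed epiblast and of neural progenitors. Its promoter (gene at chr4:124656807-124660655, plus strand) ranked at 85.5 and 83.3 in WT against 77.4 and 79.8 in K20R. The groups did not overlap, and the difference was −5.81 points. The pileups at this summit, 88.0 and 118 in WT against 79.0 and 132 in K20R, did overlap. The clearest difference near this gene was upstream. A region in an intron of the non-coding *Gm2164* (chr4:124644967-124645546, summit at −11648 bp) ranked at 75.2 and 81.1 in WT against 41.9 and 39.4 in K20R. Its pileup was 54.0 and 92.0 in WT against 31.0 and 46.0 in K20R, and its background was 7.90 and 10.7 in WT against 8.04 and 11.8 in K20R. The next region toward the gene, at −10185 bp, ranked higher in both K20R lists, with 66.1 and 62.1 in WT against 69.8 and 75.8 in K20R. Its pileups, 45.0 and 62.0 in WT against 52.0 and 95.0 in K20R, overlapped. In fold enrichment it differed by 0.42 on the log2 scale and was not called (SE 0.23, adjusted p = 0.342, limma). By its mean percentile over the 4 lists it was also the strongest *Pou3f1* region beyond 1 kb of any protein-coding start, although in WT the region at −11648 bp ranked above it. The 2 regions are shown for their opposite order over a short distance, as 201 bases around each summit on the plus strand (chr4:124645059-124645259 and chr4:124646522-124646722), with the OTX motif GGATTA in capitals.
Pou3f1 region at −11648 bp: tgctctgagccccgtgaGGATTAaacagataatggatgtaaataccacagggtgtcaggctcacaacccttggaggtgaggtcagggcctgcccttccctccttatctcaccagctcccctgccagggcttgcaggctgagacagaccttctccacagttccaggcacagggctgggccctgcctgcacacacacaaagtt
Pou3f1 region at −10185 bp: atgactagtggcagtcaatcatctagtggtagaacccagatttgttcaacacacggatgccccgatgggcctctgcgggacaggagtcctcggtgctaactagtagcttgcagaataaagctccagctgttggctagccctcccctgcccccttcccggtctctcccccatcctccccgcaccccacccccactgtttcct
The OTX letters occurred in the first window and in 5.95% of the windows at all regions, and none of the searched motifs was in the second.

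**Figure D2:**
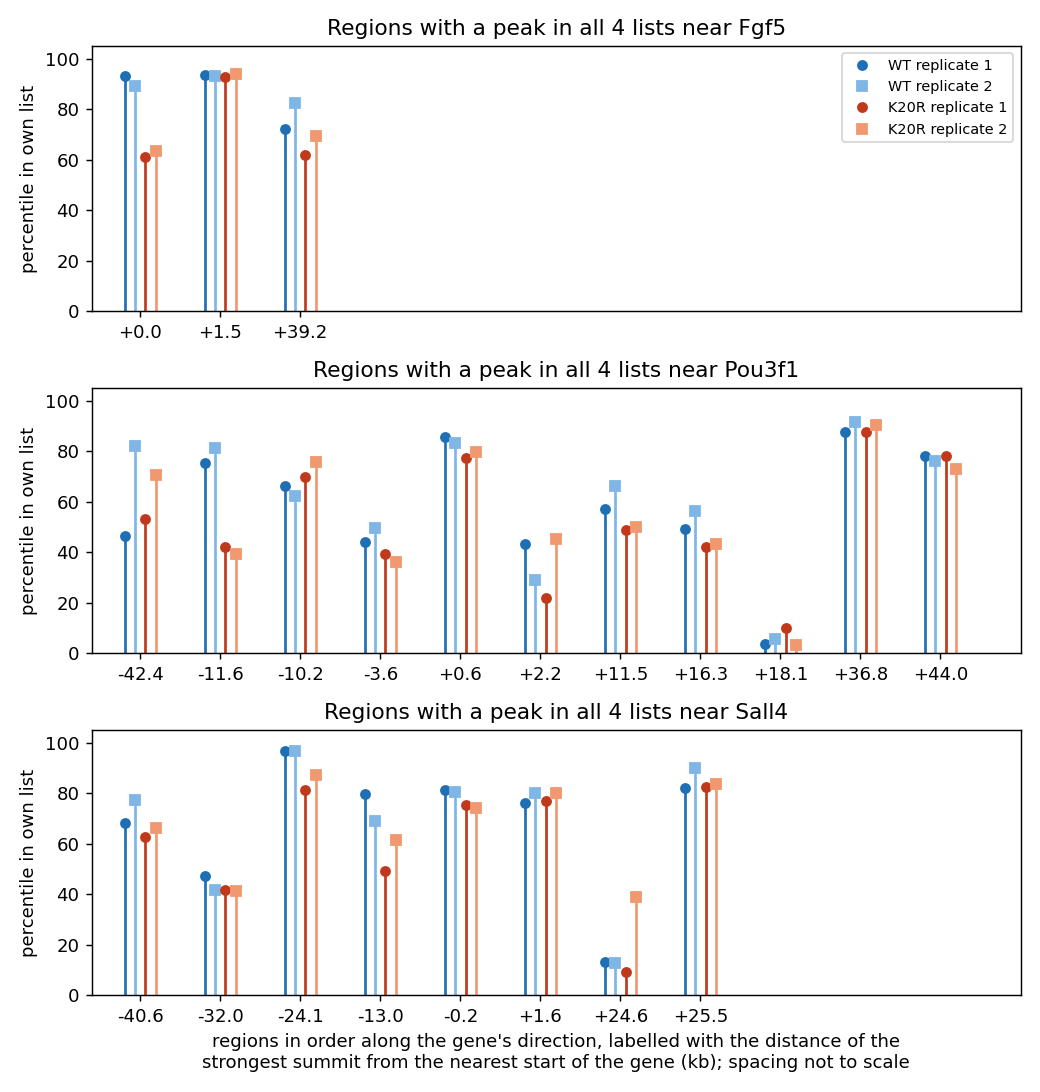
Percentile within its own list (y axis) of every region with a peak in all 4 lists within 50 kb of *Fgf5*, *Pou3f1* and *Sall4*, in order along the gene and labelled with the distance of its strongest summit from the nearest start in kb. Neighbouring regions differ in behaviour, such as the *Fgf5* promoter and the intronic peak next to it, and the *Pou3f1* regions at −11648 and −10185 bp.

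*Utf1* encodes a chromatin-bound factor found in pluripotent and germ cells. Its promoter (gene at chr7:139943789-139945112, plus strand) ranked at 85.4 and 80.6 in WT against 85.5 and 87.0 in K20R, a difference of 3.28 points. The lowest K20R and the highest WT value were nearly equal, and ranking by fold enrichment turned the sign (−0.251 points). Ranked anew among genes, the promoter stood at 46.5 and 31.9 in WT against 51.4 and 53.1 in K20R, a wider difference of 13.1 points. The fold enrichment itself was 7.18 and 6.98 in WT against 6.78 and 7.67 in K20R, which overlapped. Its strongest distal region, at 6809 bp in the non-coding *Gm16201*, overlapped as well, with 83.1 and 83.9 in WT against 84.8 and 74.2 in K20R. At −29437 bp, in the neighbouring gene *Kndc1*, a region ranked at 63.0 and 63.9 in WT against 80.1 and 78.0 in K20R, with pileups of 36.0 and 49.0 in WT against 64.0 and 85.0 in K20R. The promoter of *Kndc1*, at −48869 bp, ranked the other way, with 82.7 and 85.6 in WT against 58.2 and 69.0 in K20R.

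*Sall4* encodes a zinc-finger transcription factor needed by the inner cell mass and epiblast. At its first start (gene at chr2:168748332-168767201, minus strand) the peak ranked at 81.4 and 80.4 in WT against 75.1 and 74.0 in K20R. An intronic region that reached within 1 kb of a start overlapped between genotypes, with 76.2 and 80.0 in WT against 77.0 and 80.2 in K20R. The intronic peak was the stronger in both K20R libraries, but only in K20R replicate 2 did it count as the promoter peak, which gave a difference of −3.24 points. This value was −0.685 without K20R replicate 1 and turned to 1.17 when peaks were ranked by fold. The strongest *Sall4* region beyond 1 kb of any start was intergenic, at −24124 bp (chr2:168790844-168792058). It ranked at 96.6 in both WT lists, and at 81.4 and 87.2 in the K20R lists. Its pileup was 110 and 168 in WT against 67.0 and 120 in K20R, which overlap unless depth is taken into account, and its background was 8.36 and 11.9 in WT against 7.49 and 9.72 in K20R. The 201 bases around this summit (chr2:168791225-168791425, minus strand) are shown because no other region near the 9 genes ranked higher in WT, with a GC box in capitals.
Sall4 region at −24124 bp: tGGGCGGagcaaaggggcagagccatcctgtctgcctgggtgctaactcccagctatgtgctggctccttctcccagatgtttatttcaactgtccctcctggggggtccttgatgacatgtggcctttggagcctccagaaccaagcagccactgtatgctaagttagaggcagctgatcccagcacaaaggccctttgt
A GC box was found in 20.0% of the windows at all regions and in 33.7% of the 86 windows near the 9 genes.

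*Zic2* and *Zic5* encode zinc-finger transcription factors and lie head to head on chromosome 14, outside the lowered stretch that holds *Otx2*. The *Zic2* promoter (gene at chr14:122475435-122479852, plus strand) was the highest of the 9 in both genotypes, with 96.0 and 95.5 in WT against 87.3 and 87.6 in K20R. The difference of −8.32 points exceeded the spread within either genotype (SD 0.349 in WT and 0.208 in K20R, n = 2 each). The *Zic5* promoter (gene at chr14:122456795-122465677, minus strand) ranked at 75.5 and 77.4 in WT against 71.9 and 74.5 in K20R, a difference of −3.22 points with little space between the groups. Between the genes, at −3372 bp from *Zic5*, a weak region ranked at 0.957 and 2.53 in WT against 27.4 and 22.9 in K20R. Its pileup was 27.0 and 38.0 in WT against 39.0 and 55.0 in K20R. The strongest distal region of *Zic2*, at 6903 bp, ranked at 75.2 and 67.7 in WT against 65.7 and 48.4 in K20R. Its pileup was 86.0 and 116 in WT against 64.0 and 74.0 in K20R. The local background there was 20.4 and 31.5 in WT against 14.6 and 21.3 in K20R. In fold enrichment the difference was only 0.03 on the log2 scale (SE 0.25, adjusted p = 0.974, limma).

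The strongest distal region of *Zic5*, intergenic and 49110 bp past its start (chr14:122415917-122417023), ranked higher in K20R. It stood at 87.1 and 90.3 in WT against 96.4 and 96.5 in K20R. Its pileup was 69.0 and 114 in WT against 129 and 213 in K20R, and its local background was 6.36 and 8.69 in WT against 10.9 and 17.6 in K20R. Both the summit and its surroundings were thus higher in K20R, and the fold enrichment differed by only 0.11 on the log2 scale (SE 0.14, adjusted p = 0.789, limma). The window around this summit (chr14:122416467-122416667, minus strand) is shown because it was the 1 window of the 86 with the POU octamer ATGCAAAT, here in capitals on the opposite strand. The octamer was present in 1.83% of the windows at all regions.
Zic5 region at 49110 bp: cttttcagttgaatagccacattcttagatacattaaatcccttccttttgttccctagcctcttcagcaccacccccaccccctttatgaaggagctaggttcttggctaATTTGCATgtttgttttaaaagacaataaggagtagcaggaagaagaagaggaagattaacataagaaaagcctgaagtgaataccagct

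*Lin28a* and *Lin28b* encode RNA-binding proteins that block the maturation of let-7 precursors. The *Lin28a* promoter (gene at chr4:134003330-134018841, minus strand) had broad peaks of 3039 to 3286 bp. It ranked at 73.6 and 70.1 in WT against 66.2 and 64.7 in K20R, a difference of −6.39 points, but overlapped once promoters were ranked among themselves. Inside the gene, at 6857 bp, its strongest distal region ranked the other way, with 66.2 and 71.1 in WT against 80.1 and 76.3 in K20R. The *Lin28b* promoter (protein-coding transcripts at chr10:45376620-45470201, minus strand) was the weakest of the 9 in both genotypes, with 19.8 and 12.3 in WT against 33.3 and 46.7 in K20R. This promoter is the one at the protein-coding start. Regions upstream of it, at −1116 and −3121 bp, lay in an intron of *Lin28b*, so the annotated gene begins further upstream. The region at −3121 bp ranked at 85.8 and 84.5 in WT against 81.0 and 78.2 in K20R. Which start is used in these cells was not tested. The difference of 23.9 points in whole-list percentiles was the largest upward one among the 9 promoters, but it was 2.46 points when genes were ranked among themselves. The pileup at this promoter was 18.0 and 24.0 in WT against 26.0 and 51.0 in K20R. Ranked among genes, it lay in the lowest 5% of promoters in all 4 libraries, from 0.248 to 3.85. The strongest region beyond 1 kb of that start, at −16249 bp, was far stronger and overlapped between genotypes, with 89.6 and 86.2 in WT against 88.8 and 89.3 in K20R. Its window had a GC content of 78.1%. The 250 bases before the protein-coding *Lin28b* start (RefSeq, chr10:45470202-45470451, minus strand) are shown as a contrast to the *Fgf5* promoter. They had a GC content of 39.2% and none of the searched motifs.
Lin28b promoter: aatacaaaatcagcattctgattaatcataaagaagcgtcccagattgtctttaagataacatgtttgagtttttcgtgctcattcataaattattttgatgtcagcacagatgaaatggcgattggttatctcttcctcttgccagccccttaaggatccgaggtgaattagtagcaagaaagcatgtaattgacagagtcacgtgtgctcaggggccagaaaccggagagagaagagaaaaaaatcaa
Of the 9 genes, 6 had an entry in the RefSeq promoter table.

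The order of the promoters differed between genotypes. In WT it ran *Zic2*, *Fgf5*, *Pou3f1*, *Utf1*, *Sall4*, *Zic5*, *Otx2*, *Lin28a* and *Lin28b*, by mean percentile from 95.8 to 16.0. The values of *Pou3f1* and *Utf1*, *Utf1* and *Sall4*, *Zic5* and *Otx2*, and *Otx2* and *Lin28a* overlapped. In K20R *Zic2* remained first and *Lin28b* last, at 87.5 and 40.0, *Utf1* took the second place, and *Fgf5* was seventh, between *Lin28a* and *Otx2*. There only *Pou3f1* and *Sall4* overlapped.

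Of the 86 regions near the 9 genes, 58 had a peak in all 4 lists. There were 3 regions with a peak in both WT lists and in no K20R list, and 0 with the reverse, where 10.4% and 3.10% of all regions were restricted to WT and to K20R. Both counts near the 9 genes were below these shares, and no restricted region lay within 10 kb of a start. One was near *Utf1* (chr7:139971478-139972037, at 27873 bp, in an intron of *Gm16201*), with percentiles of 23.6 and 12.7 in WT. The other 2 were downstream of *Lin28a*, at 48520 bp in an untranslated exon of *Dhdds* (chr4:133969893-133970498), with 50.1 and 61.0 in WT, and at 15748 bp between genes (chr4:134003044-134003316), with 14.2 and 29.2. Peaks had been taken out of the deposited lists. At the first 2 of these sites 1 number was missing from each K20R list between the nearest listed peaks on either side. A called peak may thus have been removed at the site or elsewhere in that interval. At the last no number was missing, and no K20R peak had been called.

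Of the 58 shared regions, 30 ranked lower without overlap in K20R and 9 higher. Without those of *Otx2*, which is judged apart below, 23 of 51 were lower and 9 higher. Of the 38527 shared regions of the series, 34.8% were lower and 18.6% higher. Log2 fold enrichment was then compared between genotypes with limma, fitted over all of these with Benjamini-Hochberg adjustment. At an adjusted p below 0.05, 3.63% of all regions were lower in K20R and 2.48% higher. Near the 9 genes 1 region was lower and 1 higher, which is close to those shares, and 9 of the 58 had an unadjusted p below 0.05, where 18.2% of all shared regions did. The lower region was the *Pou3f1* region at −11648 bp, which fell by 0.90 on the log2 scale (SE 0.23, adjusted p = 0.015). The call was lost without WT replicate 1 (adjusted p = 0.062) and without K20R replicate 2 (adjusted p = 0.145). The higher region lay 17875 bp past the *Lin28a* start and is the promoter of *Dhdds* (chr4:134000451-134002140), a gene of dolichol synthesis. It rose by 0.60 (SE 0.14, adjusted p = 0.008), but its pileup, 81.0 and 111 in WT against 99.0 and 126 in K20R, did not pass the same test (adjusted p = 0.563). Its background was 8.74 and 10.6 in WT against 6.86 and 8.26 in K20R, and the call was also lost without K20R replicate 1 (adjusted p = 0.143).

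The *Fgf5* promoter differed by −0.73 (SE 0.24) and missed the threshold, with an adjusted p of 0.067, while the intronic peak next to it differed by 0.22 (SE 0.19, adjusted p = 0.617). The *Sall4* region at −24124 bp differed by −0.34 (SE 0.14, adjusted p = 0.179) and the *Lin28b* promoter by 0.49 (SE 0.22, adjusted p = 0.218). For the *Zic2* promoter the difference was −0.18 (SE 0.23, adjusted p = 0.777). Fold enrichment divides the summit by its local background, and the calls differed when the undivided pileup was used. The reason for this was not tested. When limma was run on the summit pileup instead, 10.7% of all regions were lower and 9.73% higher, and of the 51 shared regions near the 8 genes other than *Otx2*, 10 were lower and 4 higher. On that scale the *Fgf5* promoter fell by 1.02 (SE 0.13, adjusted p = 2.8e-05), the *Sall4* region at −24124 bp fell by 0.71 (SE 0.12, adjusted p = 4.8e-04), and the *Zic2* promoter fell by 0.48 (SE 0.09, adjusted p = 0.001). The *Lin28b* promoter rose by 0.73 (SE 0.24, adjusted p = 0.038), and the *Zic5* region at 49110 bp rose by 0.78 (SE 0.12, adjusted p = 1.5e-04). The *Pou3f1* region at −11648 bp was lower on both scales.

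**Figure D3:**
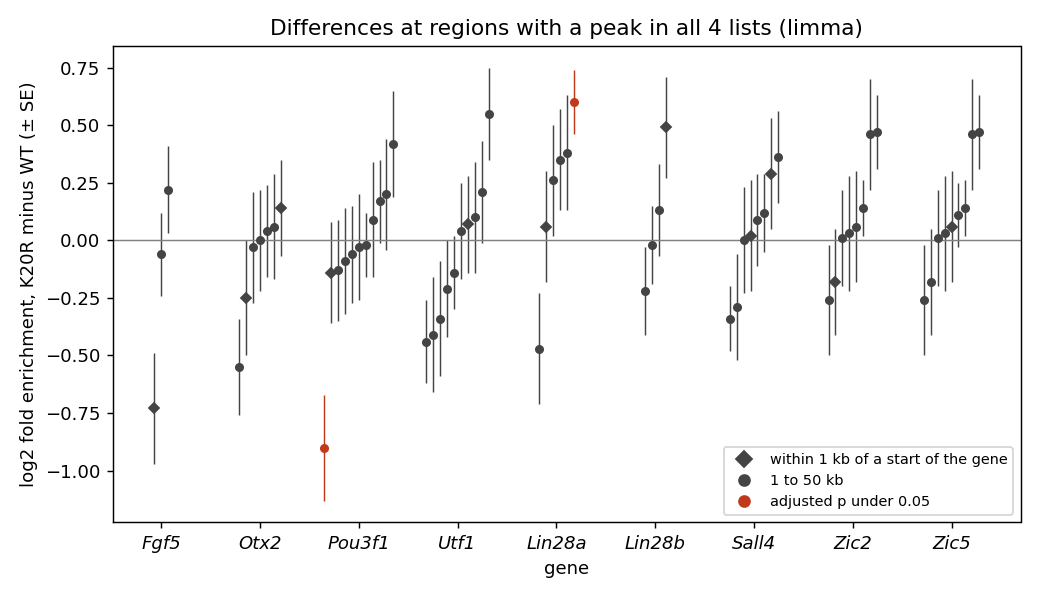
Difference in log2 fold enrichment, K20R minus WT (y axis), with its standard error as the bar, for each region with a peak in all 4 lists within 50 kb of each gene; regions shared by *Zic2* and *Zic5* appear under both. Of 58 regions, 1 near *Pou3f1* (−0.90) and 1 near *Lin28a* (0.60) have an adjusted p below 0.05.

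*Otx2* encodes a homeodomain transcription factor that redirects OCT4 to new enhancers as naive pluripotency ends. It was judged apart because it lies in a stretch of chromosome 14, from 45.0 to 66.2 Mb, in which signal was lower in K20R over 21.2 Mb. The strongest promoter peak of the gene (chr14:48657677-48673819, minus strand) ranked at 75.9 and 68.6 in WT against 58.5 and 56.5 in K20R. It was not the same peak: in WT it was the one in the region chr14:48665971-48667187, which ranked at 42.9 and 33.0 in K20R, and in K20R it was the one at the most distal start (chr14:48673579-48675376), which ranked at 72.5 and 64.4 in WT. All 7 *Otx2* regions with a peak in all 4 lists ranked lower in both K20R lists than in both WT lists. Over all shared regions of the series, 34.8% did so. The strongest distal one, at 7771 bp, ranked at 84.7 and 83.0 in WT against 68.6 and 69.3 in K20R, and one at −35701 bp ranked at 73.1 and 84.4 in WT against 38.1 and 42.3 in K20R.

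The regions of the surrounding stretch had similar values. The median log2 difference in pileup, each library taken relative to its own median, was −0.87 over the 7 *Otx2* regions and −0.81 over the 327 shared regions of the stretch. In local background it was −0.89 for *Otx2* and −0.78 for the stretch. In fold enrichment, which divides pileup by background, it was −0.03 for *Otx2* and −0.11 for the stretch, and none of the 7 regions was called in fold enrichment by limma, against 32 lower and 2 higher of the 327. The region at −35701 bp came nearest, at −0.55 (SE 0.21, adjusted p = 0.130). On pileup limma called 6 of the 7 lower, where 10.7% of all shared regions were lower. For the other 8 genes the median was −0.05 in pileup, −0.21 in background and 0.03 in fold enrichment. The lower rank of *Otx2* and the lowered stretch cannot be told apart in pileup.

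**Figure D4:**
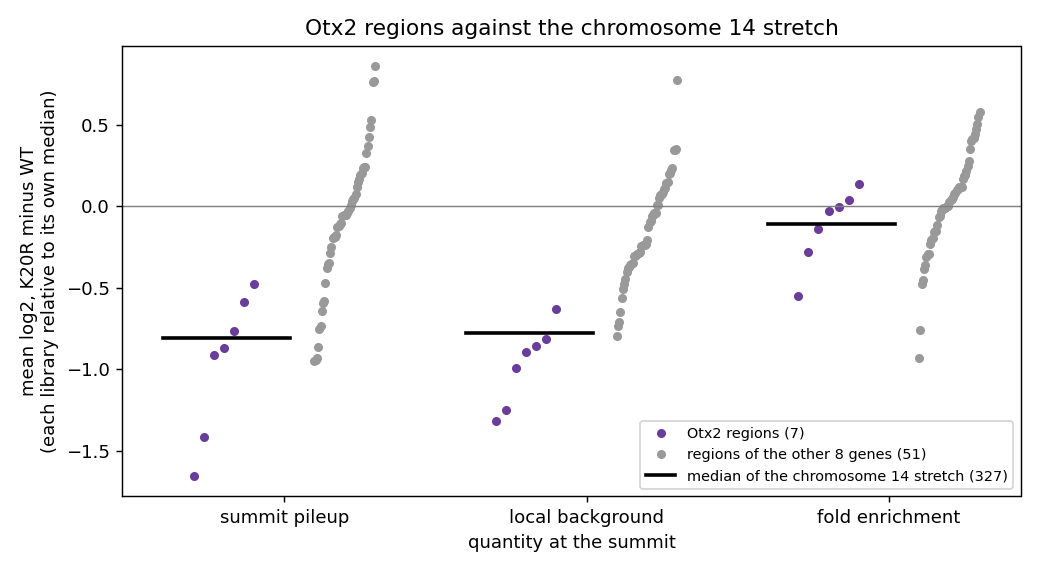
Mean log2 difference, K20R minus WT, in summit pileup, local background and fold enrichment (y axis, each library relative to its own median) for the 7 *Otx2* regions, the 51 regions of the other 8 genes and, as a black line, the median of the 327 regions of the stretch. The *Otx2* regions sit around the line at −0.81 for pileup and near 0 for fold enrichment.

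Other gene lists are given for reference, first by percentile within the whole lists and then with genes ranked anew among themselves. As a background for each list, 32.2% of the 14494 genes with a promoter peak in all 4 lists were lower and 15.8% higher. Ranked anew, 23.0% of these genes were lower and 23.9% higher. Of 14 other formative and primed genes, 4 promoters ranked lower without overlap, 3 higher and 7 overlapped, and ranked anew 3 were lower and 5 higher. The DNA methyltransferase gene *Dnmt3b* ranked at 81.7 and 79.5 in WT against 69.6 and 75.8 in K20R, and its relative *Dnmt3a* at 79.7 and 78.0 in WT against 80.4 and 83.8 in K20R. *Grhl2*, an epithelial factor, had a difference of −8.53 points and *Sox3* one of 8.18. Of 15 naive and core genes with a promoter peak in all lists, 5 were lower and 6 higher, and ranked anew 1 was lower and 6 higher. *Pou5f1*, which encodes OCT4, ranked at 77.9 and 79.3 in WT against 84.9 and 87.7 in K20R, *Dppa5a* differed by 9.17 points, *Nanog* by −7.78 (overlapping when ranked anew) and *Tdgf1*, a Nodal co-receptor, by −11.4. Whether the lists differ from each other was not tested.

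Among paralogues of the 9 genes, 4 of 11 were lower and 2 higher (3 and 2 ranked anew). *Zic4* and *Sall2* each differed by −13.7 points and *Sall1* by 7. *Sall2* lies, like *Otx2*, in the lowered stretch of chromosome 14. Of 12 genes of the LIN28 and let-7 axis, 3 were lower and 1 higher (1 and 2 ranked anew), with *Mycn* at −14.2 points, *Igf2bp3* at −11.9 and *Dgcr8*, part of the microRNA processor, at 0.435. Of 9 neuroectoderm genes, 3 were lower and 0 higher (3 and 1 ranked anew), with *Hes5* at −8.54 and *Six3* at −7.77. Early mesoderm genes went both ways, 5 lower and 3 higher of 9 by either ranking, with *Evx1* at −28.3, *T* at −16.8, *Eomes* at 5.54 and *Mesp1* at 26.4. Of the fibroblast markers, which feeder cells would carry, 5 of 9 had a promoter peak in all lists, 2 were lower (*Prrx1* at −11.6 and *Thy1* at −10.1) and 0 higher, and ranked anew 2 were lower and 1 higher. Their part in the results was not tested.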

How the data were processed

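ATAC-seq peak lists of 2 WT and 2 CTCF-K20R libraries of day 4 EBs were analysed, and the labels gave genotype and replicate. The study's methods state that reads were trimmed with Trim Galore and aligned to mm10 with Bowtie2, reads of low mapping quality, duplicates and blacklisted regions were removed, and peaks were called with MACS2. The deposited score of a peak is its −log10 p times 10. Fold enrichment over local background at the summit is the deposited ratio. The deposited −log10 p and −log10 q belong to the summit. The last deposited column holds the offset of the summit from the peak start, the authors' other value. The lists kept 50.5% to 60.8% of their peak numbers, by a rule not given in the sources used here. The methods state default settings for MACS2, but the lists hold peaks with q over 0.05 (from 2.18% to 5.05%), which is weaker than that default, and percentiles depend on where a list ends. Read totals were not used, so depth is known only through the median summit pileup at shared regions (38.0 and 56.0 in WT, 39.0 and 58.0 in K20R).

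Peaks were assigned to starts of protein-coding transcripts in GENCODE vM21 basic (the largest peak end was 0.999 of its chromosome's length in GRCm38.p6), within 1000 bp for promoters and 50000 bp for nearby regions, and merged where they shared at least 1 bp. The fold and p that the authors deposited gave back pileup and background, and 100% of pileups lay within 0.1 of a whole number. Promoter percentiles were compared by exact two-sided permutation tests, and the −log10 p rank was the measure. limma (version 3.58.1, R 4.3.3) was fitted to quantile-normalised log2 fold enrichment of K20R minus WT with a trended prior, and the spread was mostly borrowed across regions (32.4 total degrees of freedom). The replicates are biological according to the methods, and p-values measure the spread between these libraries. Motifs were searched within 100 bp of the strongest summit on both strands (POU octamer ATGCAAAT, SOX CATTGTT, OTX GGATTA, ZIC CCTGCTG, GC box GGGCGG and the CTCF consensus, which can overlap the ZIC letters), with all regions as reference. The 9 genes and the other lists were chosen with earlier results of these data known. Named were all 9 genes, every restricted or called region, the strongest distal region of each gene, and per other list up to 2 genes with the largest rise and 2 with the largest fall without overlap. One gene that this rule names is not reported here. Regions that ranked apart, such as those near *Utf1*, *Otx2* and *Zic5* described beside these, were chosen after their values were seen.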

Additional observations from a re-analysis of the deposited data

How the results depend on the processing

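The precision is set by 2 libraries a genotype and by the depth behind each peak, and no exact test of a single promoter percentile could pass the threshold. Of the 9 promoters, ranking by fold left 2 lower and 1 higher without overlap and turned the sign for *Otx2* (2.69 points), *Utf1* (−0.251) and *Sall4* (1.17). A promoter half-width of 2000 bp turned *Fgf5* (0.106 points), since it takes in the intronic peak at 1532 bp. With a −log10 q of at least 5, 1 promoter was higher. WT-restricted regions numbered 0 within 10 kb and 10 within 100 kb, and 5 to 9 when 1 library was left out. K20R-restricted regions numbered 1 at a −log10 q of at least 5 or 10, 2 within 100 kb, 2 among equal numbers of strongest peaks, and 2 to 4 when 1 library was left out. For these promoter and restricted counts no shares over all genes or regions are given under the same settings. They therefore cannot be read against a background. By limma, 2 regions were lower with median centring and 2 where every list reached a −log10 q of 5, 10 lower and 5 higher on −log10 p (8.65% and 7.41% of all regions), 16 lower and 4 higher on pileup (10.7% and 9.73%), and 0 to 2 lower and 0 to 1 higher without 1 library. Over all regions, 1586 of 38527 were lower with median centring, and 549 of 29191 where every list reached a −log10 q of 5. The causes of the shifts between settings were not tested. By definition, fewer lists had to agree for a region to be restricted when 1 library was left out.

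The *Fgf5* promoter passed the threshold with median centring (adjusted p = 0.023), on −log10 p (1.1e-06), on pileup (2.8e-05), where every list reached a −log10 q of 5 (0.026) and without WT replicate 2 (0.023), and its adjusted p was 0.295 without K20R replicate 2 and 0.478 without WT replicate 1. Over all regions the limma counts ranged from 830 to 4141 lower and from 455 to 3748 higher, against 1400 and 954. Same-numbered libraries deviated together (Pearson r = 0.21 across 38527 regions, which are not independent replicates), but 2 pairs do not establish a pairing. With the replicate number as a block, 1426 regions were lower and 1002 higher, and the calls near the 9 genes were again 1 and 1.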

Other observations

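The consensus of CTCF itself stood in the window of 1 of the 86 regions near the 9 genes (1.16%) and in 5.97% of the windows at all 80380 regions. The region is intergenic, at −17272 bp from *Lin28a*, and overlaps the ZIC letters. It had a peak in WT replicate 2 (percentile 32.8) and in both K20R libraries (35.2 and 55.0), and none in WT replicate 1. That list lacks 3 peak numbers between the nearest listed peaks on the 2 sides of this region. The SOX letters were found in 4 of the 86 windows and the OTX letters in 7. The median GC content was 57% over the windows near the 9 genes and 53.2% over all windows. No match says only that these letters are not in a window.

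By position of the strongest summit, 40 of the 86 regions were intronic, 25 intergenic, 11 in untranslated exons, 5 in coding exons and 5 in non-coding exons. Of the 25 regions that were neither shared by all lists nor restricted to a genotype, 13 were in 3 lists, of which 6 lacked only K20R replicate 1, the shortest list, and 10 were in 1 list.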
